A study of Homo sapiens with 2 samples.

Results

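The 10 genes CCND1, CCND2, CCND3, CCNE1, CCNE2, CCNA2, CCNB1, CCNB2, CCNF and CCNG1 encode the cyclins described here, out of 33538 genes counted in each library. They were chosen by name, and all 10 were present in both matrices. The transcripts were counted in single cells of CHLA9 and TC71, established lines of Ewing sarcoma, a cancer of bone and soft tissue in children and young adults. The labels name no treatment and no engineered change in either line, and 1 droplet library of each was made with a 3′ kit. The medium of CHLA9 was IMDM with 20% serum plus insulin, transferrin and selenite, and that of TC71 was RPMI with 10% serum. Line, medium and sequencing run cannot be told apart, because each line has its own medium and CHLA9 alone was also sequenced on a NovaSeq.

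Cyclins are the regulatory partners of cyclin-dependent kinases (CDKs), which do little without them. The D cyclins pair with CDK4 and CDK6 and link growth signals to the cycle, the E cyclins pair with CDK2 at the entry into S phase, and cyclin A2 acts with CDK2 and then CDK1 from S phase into G2. Cyclins B1 and B2 drive mitosis with CDK1 and are then destroyed. Cyclin F works without a CDK, as the substrate receptor of a ubiquitin ligase, and cyclin G1 is a p53 target that feeds back on MDM2. In most dividing cells CCNE, CCNA2, CCNB and CCNF transcripts come and go with each cycle, whereas CCND transcripts follow growth signals more than cycle position.

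Cells entered with 5000 or more unique molecular identifiers (UMIs, 1 for each captured RNA molecule) and 2000 or more genes, unless over 15% of their UMIs were mitochondrial. This left 4524 of 5077 CHLA9 barcodes with 174975302 UMIs and 1729 of 8468 TC71 barcodes with 58355173 UMIs. The median was 34656 UMIs per cell in CHLA9 and 33370 in TC71. With a single library per line there was no test of their difference, and each interval below is a 95% interval that covers counting error only. All 6 Ewing sarcoma markers looked at were found in both lines, from 9.89 to 1141 UMIs per 1000000 (CPM) in CHLA9 and from 23.0 to 402 CPM in TC71. Of 8 markers of other cell types, CD3E and HBB had no UMI in either line, COL3A1 stood at 23.0 and 10.6 CPM, and the other 5 stood at no more than 1.85 CPM. The libraries shared 16 barcodes, of which 3 were among the kept cells. Where cells were set side by side one by one, each was thinned at random to 10000 UMIs, which left out 14 CHLA9 and 59 TC71 cells that held fewer.

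CCND1 was by far the most abundant of the cyclin transcripts in both lines. It stood at 2510.5 CPM (2503 to 2518) in CHLA9 and at 1451 CPM (1441 to 1461) in TC71, which placed it 49th and 101st among all genes. The 3′ protocol counts a molecule once whatever its length, so no scaling for length was applied. Whether molecules of different genes were captured equally well was not measured. CCND2 stood at 50.7 CPM (49.7 to 51.8) in CHLA9 and at 1.66 CPM (1.35 to 2.03) in TC71, from 8878 and 97 UMIs. CCND3 stood at 20.5 CPM (19.9 to 21.2) in CHLA9 and at 14.9 CPM (13.9 to 15.9) in TC71. The second place among the D cyclins therefore differed, with CCND2 above CCND3 in CHLA9 and CCND3 8.94-fold above CCND2 in TC71 (7.24 to 11.1).

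Of all cyclin D UMIs, CCND1 held 97.2% in CHLA9 and 98.9% in TC71 (exact Clopper-Pearson intervals 97.2 to 97.3 and 98.8 to 98.9). CCND1 exceeded CCND2 49.5-fold in CHLA9 (48.5 to 50.5) and 873-fold in TC71 (715 to 1076). It exceeded CCND3 122-fold in CHLA9 (118 to 126) and 97.6-fold in TC71 (91.3 to 105). The dominance held cell by cell. After thinning, CCND1 had the most UMIs of the 3 genes in 4509 of 4509 CHLA9 cells with a cyclin D UMI, and in 1668 of 1669 TC71 cells. In 2545 CHLA9 cells (56.4%) and 1399 TC71 cells (83.8%) it was the only D cyclin found. These shares depend on depth. At full depth 54.0% of CHLA9 cells held a CCND2 UMI and 51.3% a CCND3 UMI, against 4.22% and 38.4% of TC71 cells. After thinning, CCND2 was found beside CCND1, with or without CCND3, in the 31.1% of CHLA9 cells that held it. No thinned CHLA9 cell held CCND2 without CCND1, but only 1 cell lacked CCND1, so this outcome was nearly fixed in advance. A count of 0 among 4510 cells allows a share of cells with a UMI of up to 0.0665% (3 counts of the total). Across cells the UMIs of the 3 genes were nearly uncorrelated in every pairing, with Pearson's r from -0.0122 to 0.0105 over 4510 or 1670 thinned cells, which in counts this sparse carries no finding.

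Among the cyclins of S phase and mitosis, CCNB1 was the highest, at 279 CPM (277 to 282) in CHLA9 and 240 CPM (236 to 244) in TC71. CCNA2 followed at 120.1 CPM (118 to 122) in CHLA9 and 127 CPM (124 to 130) in TC71, and CCNB2 at 109 (108 to 111) and 95.2 CPM (92.7 to 97.8). CCNF stood at 47.8 CPM (46.8 to 48.9) in CHLA9 and 27.7 CPM (26.3 to 29.0) in TC71. The E cyclins were unequal in both lines, with CCNE2 at 38.6 CPM (37.6 to 39.5) in CHLA9 and 40.9 CPM (39.3 to 42.6) in TC71, and CCNE1 at 8.27 (7.85 to 8.71) and 3.98 CPM (3.48 to 4.52). CCNG1 stood at 79.9 CPM (78.6 to 81.2) in CHLA9 and 55.5 CPM (53.6 to 57.4) in TC71. The order from the top was CCND1, CCNB1, CCNA2, CCNB2 and CCNG1 in both lines. It went on with CCND2, CCNF, CCNE2, CCND3 and CCNE1 in CHLA9, and with CCNE2, CCNF, CCND3, CCNE1 and CCND2 in TC71. No neighbours in either order had overlapping intervals, although the spread between cultures and the capture of each gene are unknown. The closest were CCND2 and CCNF in CHLA9, 1.06-fold apart.

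**Figure D1:**
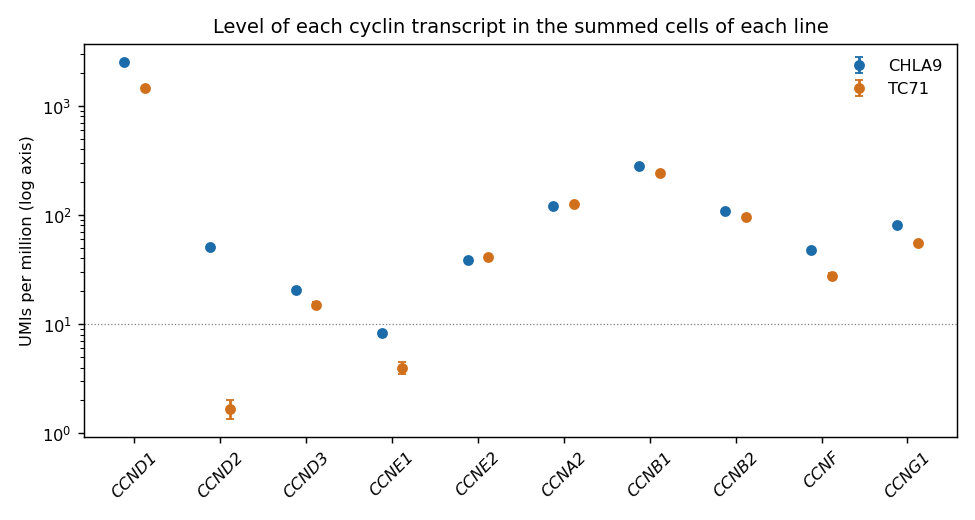
UMIs per 1000000 (CPM) of each cyclin transcript (log axis) in the summed kept cells of CHLA9 and TC71, with 95% Poisson intervals, most of them narrower than the point, and a dotted line at 10 CPM. CCND1 lies above all others in both lines, and CCND2 shows the widest gap between the lines, at 50.7 against 1.66 CPM.

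Between the lines, 1 of the 9 cyclins with at least 10 CPM in a line differed 2-fold or more. That was CCND2, 30.5-fold higher in CHLA9, a log2 ratio of TC71 over CHLA9 of -4.93 (-5.24 to -4.64). Among all 9258 genes with 10 CPM in a line, 16.3% were 2-fold or more higher in CHLA9, 8.8% in TC71 and 25.1% in either direction, so a count of 1 in 9 is no larger than the share among all genes. The median log2 ratio was -0.47 over the 9 cyclins and -0.21 over all 9258 genes. CCND1 and CCNF were each 1.73-fold higher in CHLA9, with log2 ratios of -0.79 for both, and CCNG1 had a log2 ratio of -0.53. CCNE2 and CCNA2 were nearly level, with log2 ratios of 0.09 (0.02 to 0.15) and 0.08 (0.04 to 0.12). CCNE1, below the minimum of 10 CPM in both lines, was 2.08-fold higher in CHLA9.

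The 17 other cyclin genes in the matrices were looked at as a list. Of the 13 with 10 CPM in a line, 3 were 2-fold or more higher in CHLA9 and 0 in TC71. Among all 9258 genes 25.1% were past 2-fold in either direction, so this count is near the share among all genes. CCNL2, which pairs with kinases that act on splicing, stood at 127 CPM in CHLA9 and 49.9 in TC71, and CCNY, a membrane-bound cyclin, at 122 and 53.8 CPM. CCNG2, the closest relative of CCNG1, was the last of the 3, named after its values were seen, at 13.9 and 4.73 CPM.

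Genes that act with the cyclins were counted by list. Of 4 kinases, CDK1 stood at 139 and 161 CPM, CDK4 at 170.1 and 166 CPM, and CDK2 at 25.6 and 25.2 CPM in CHLA9 and TC71. CDK6, the alternative partner of the D cyclins, was the only kinase past 2-fold, with 4 UMIs in CHLA9 (0.0229 CPM, 0.00623 to 0.0585) and 902 in TC71 (15.5 CPM, 14.5 to 16.5). Of 7 CDK inhibitor genes, 4 reached 10 CPM, and 1 of these differed 2-fold or more. CDKN2A, which encodes the CDK4 and CDK6 inhibitor p16 and also ARF, stood at 121 CPM in CHLA9 and 0.805 CPM in TC71, 150-fold apart. CDKN1A, the p21 gene, stayed under 10 CPM at 0.263 and 7.20 CPM, as did CDKN1C, the p57 gene, at 6.20 and 1.89 CPM. CDK6, CDKN1A and CDKN1C were named after their values were seen. With 1 of 4 kinases and 1 of 4 inhibitor genes past 2-fold, against 25.1% of all 9258 genes in either direction, neither list stood out by its count.

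Among 7 activators and brakes of the CDKs 1 was 2-fold or more higher in CHLA9 and 0 in TC71, the count was 1 and 0 among 7 genes of cyclin turnover, and 1 and 0 among 6 pocket protein and E2F genes. These were PKMYT1, an inhibitory kinase of CDK1, at 40.8 and 16.2 CPM, AMBRA1, a receptor for the destruction of D cyclins, at 11.5 and 4.85 CPM, and E2F2, a transcription factor that RB1 restrains, at 44.9 and 16.1 CPM in CHLA9 and TC71. They too were named after their values were seen. Among all 9258 genes 16.3% were 2-fold or more higher in CHLA9, so 1 gene in each of these lists is near the share among all genes. RB1 itself stood at 38.3 and 43.97 CPM. CCNG1 belongs to the p53 targets, and of 3 other targets that reached 10 CPM, ZMAT3 was 2.39-fold higher in TC71, while MDM2 and BAX stayed under 2-fold.

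How unevenly a transcript was spread over cells was read from the ratio of the variance to the mean of its UMIs per thinned cell, which is 1 when cells differ by sampling alone. The median over all genes of 10 CPM was 1.04 in CHLA9 and 1.05 in TC71. CCNB1 had the highest ratio of the cyclins, 4.22 in CHLA9 and 2.48 in TC71, and within groups of cells at the same cycle position, described below, it was 1.88 and 1.73. CCNB2 went from 1.83 to 1.23 and CCNA2 from 1.66 to 1.16 in CHLA9 when cells were taken by cycle position, so much of their spread lay between positions. CCND1 and CCND2 behaved otherwise. CCND1 had a ratio of 2.48 in CHLA9 and 2.38 in TC71 over all cells, and 2.44 and 2.35 within positions. CCND2 had a ratio of 1.79 in CHLA9 over all cells and 1.79 within positions, with 68.9% of cells at 0 UMIs, 18.8% at 1, 7.14% at 2 and 5.21% at 3 or more, up to 8 UMIs. The share of 8621 genes in CHLA9 with a higher ratio was 1.87% for CCND2, against 0.209% for CCNB1, 0.661% for CCND1 and 1.64% for CCNB2. It was 2.44% or more for each of the other cyclins. CCND3 stood at 1.00 in both lines, and CCNG1 at 1.07 and 1.01. For a like relative spread the ratio rises with the mean, so it does not rank genes of unlike level by spread. The means in CHLA9 were 25.2 UMIs per thinned cell for CCND1, 0.519 for CCND2 and 0.206 for CCND3. At so low a mean, a ratio near 1 does not show that CCND3 was even among cells.

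**Figure D2:**
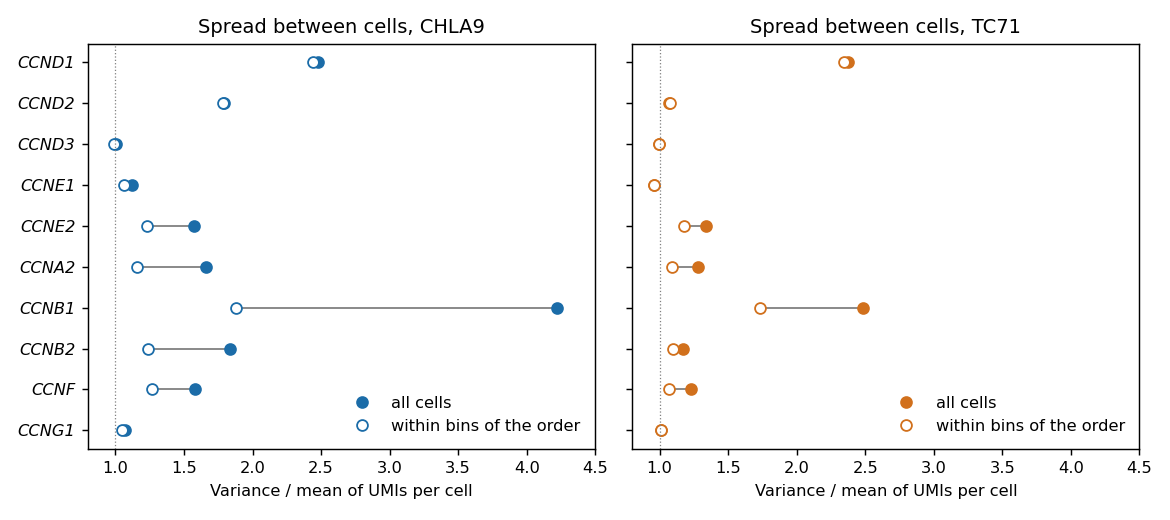
Variance divided by mean of the UMIs per thinned cell for each cyclin in CHLA9 and TC71, over all cells (filled points) and within 20 bins of cells at like cycle positions (open points), with a dotted line at 1. The lines joining the points are long for CCNB1, CCNB2 and CCNA2 in CHLA9 and short for CCND1 and CCND2.

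To place the cyclins along the cycle, each thinned cell was given an S score and a G2/M score from 42 and 53 genes, none of them a cyclin described here. Cells were ordered by their angle in the plane of both scores, starting where both were lowest and passing through high S to high G2/M, and the order was divided into 20 bins of equal cell number. Positions below are percentages of the cells in that order, not of time, and levels are running values over 3 neighbouring bins at full depth. Landmark genes of the cycle were placed first. In CHLA9, MCM3 peaked at 37.5%, the histone gene HIST1H4C at 47.5%, FOXM1 at 62.5%, PLK1 at 77.5% and PTTG1 at 87.5%. In TC71 MCM3 peaked at 37.5%, HIST1H4C at 42.5% and PLK1 at 72.5%, but PTTG1 was highest at 7.5%, with a peak only 1.38-fold above its trough. Median UMIs per cell ran from 27399.5 to 44342 over the CHLA9 bins and from 29881 to 41272 over the TC71 bins, highest around G2/M.

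The sequence before the start of the cycling cyclin genes is shown because 2 short motifs are classically tied to their timing, the CCAAT box bound by NF-Y and the cell cycle homology region (CHR) bound by the DREAM and B-MYB complexes. RefSeq stretches on GRCh38.p14 of up to 150 bases ending before the annotated starts are given 5′ to 3′ on the gene's strand. They lie at chr19:29811841-29811990 (plus strand) for CCNE1, chr4:121823884-121824033 (minus) for CCNA2, chr5:69167000-69167134 (plus) for CCNB1, chr15:59104996-59105125 (plus) for CCNB2 and chr16:2429297-2429393 (plus) for CCNF. Each lies just before the first exon. Capitals mark CCAAT on either strand (ATTGG when reversed) and, also on either strand, the CHR as TTTGAA or as one of its variants, of which TTTAAA was searched first, then CTTGAA, and last the rare variant TTCGAA.
CCNE1: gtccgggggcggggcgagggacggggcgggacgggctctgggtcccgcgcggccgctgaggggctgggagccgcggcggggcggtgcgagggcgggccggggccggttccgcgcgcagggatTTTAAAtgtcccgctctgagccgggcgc
CCNA2: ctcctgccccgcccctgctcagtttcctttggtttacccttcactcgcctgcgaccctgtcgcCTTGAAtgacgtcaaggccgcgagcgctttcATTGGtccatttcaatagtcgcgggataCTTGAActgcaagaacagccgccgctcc
CCNB1: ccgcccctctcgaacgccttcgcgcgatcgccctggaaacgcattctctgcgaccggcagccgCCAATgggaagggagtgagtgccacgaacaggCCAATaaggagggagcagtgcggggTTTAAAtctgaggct
CCNB2: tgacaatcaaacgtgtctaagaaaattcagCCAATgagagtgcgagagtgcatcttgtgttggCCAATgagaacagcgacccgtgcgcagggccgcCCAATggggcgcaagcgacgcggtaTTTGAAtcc
CCNF: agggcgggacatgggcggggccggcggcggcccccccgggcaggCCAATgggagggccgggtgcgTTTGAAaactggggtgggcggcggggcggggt

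CCNA2, CCNB1, CCNB2 and CCNF each held both a CCAAT box and a CHR form in the 150 bases before the RefSeq start, which 4.47% of 35116 promoters did. A CHR form alone stood in 17.3% and a CCAAT box in 23.5% of those promoters. CCNB2 held 3 CCAAT boxes, CCNB1 2 and CCNA2 and CCNF 1 each. CCNE1 held TTTAAA and no CCAAT box, CCNG1 held CCAAT boxes and no CHR form in both of its windows, and CCND3 held a CCAAT box in 2 of 3 windows and a CHR form in none. CCND1, CCND2 and CCNE2 had no entry in the promoter table. A match is a description of letters and shows no binding.

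In CHLA9, 5 of the 9 cyclins with 10 CPM varied 2-fold or more between peak and trough, against 7.46% of 8621 genes. In TC71 it was 5 of 8, against 5.01% of 8158 genes. The same 5 genes passed in both lines, namely CCNE2, CCNA2, CCNB1, CCNB2 and CCNF, but CCNB2 in TC71 was at 1.91-fold with 10 bins and at 1.99-fold with scores at 5000 UMIs, which left 4 genes there. CCNE1, under the minimum, also varied, by 13.8-fold in CHLA9 and 6.72-fold in TC71. The median peak over trough was 7.23-fold among the 9 in CHLA9 and 1.32-fold among all genes, and 2.44-fold among the 8 and 1.38-fold among all genes in TC71.

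**Figure D3:**
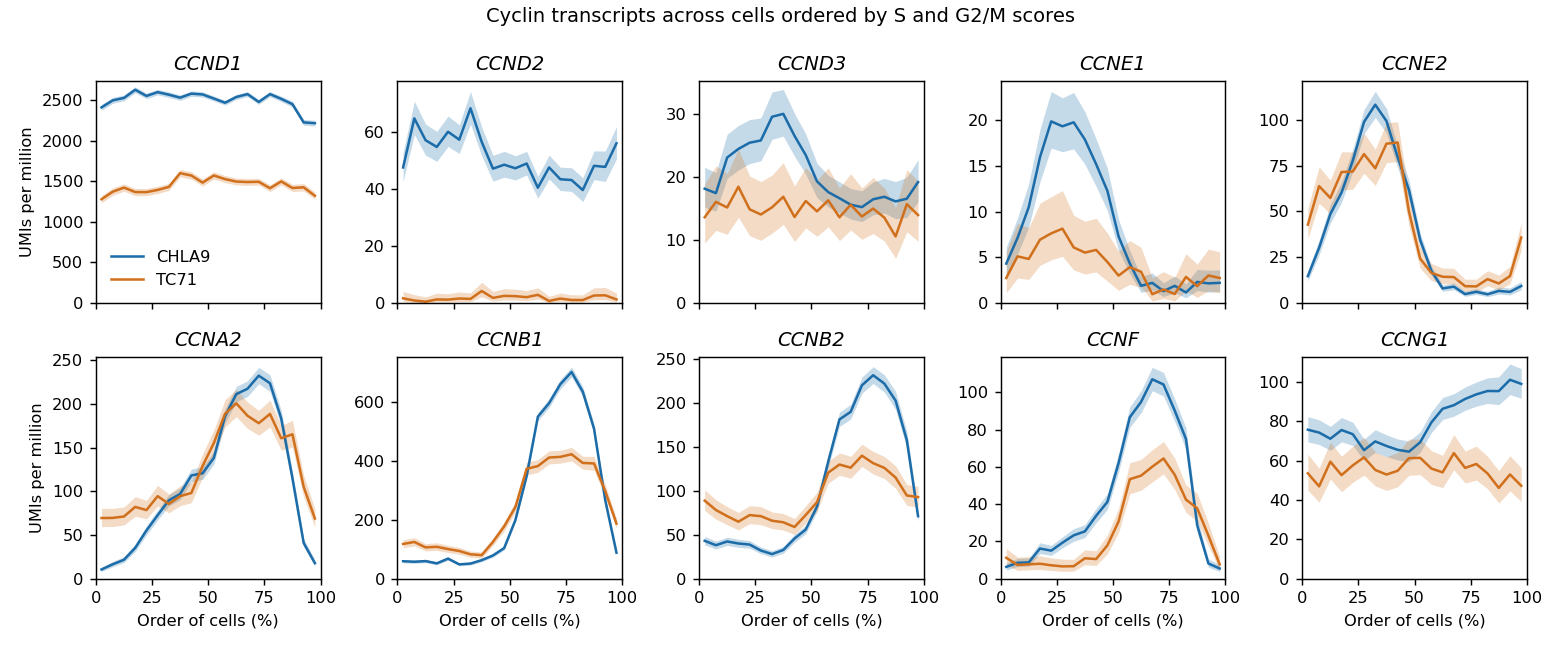
UMIs per 1000000 (CPM) of each cyclin in 20 bins of cells ordered by S and G2/M scores, as lines with 95% Poisson bands, for CHLA9 (blue) and TC71 (orange), each panel on its own axis from 0. The E cyclins crest in the first part of the order, CCNF, CCNA2 and the B cyclins between 62.5% and 77.5%, and CCND1 stays flat.

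The E cyclins came first. CCNE2 peaked at 32.5% in CHLA9 with 102 CPM (98.1 to 106) and had its trough at 77.5% with 5.10 CPM (4.31 to 5.99), 20.0-fold lower. In TC71 it peaked at 37.5% with 82.6 CPM (76.7 to 88.9) over a trough of 10.3 CPM (8.35 to 12.5), an 8.05-fold range. CCNE1 had the same shape at a lower level, from 19.7 CPM at 27.5% to 1.42 CPM at 77.5% in CHLA9, and from 7.56 CPM at 22.5% to 1.12 CPM at 72.5% in TC71. The bins that could not be told from the peak by counting error ran from 20% to 40% for CCNE1 and from 25% to 40% for CCNE2 in CHLA9, so the peaks of the E cyclins were not separated. Their profiles over the 20 bins correlated at r = 0.99 in CHLA9 and 0.86 in TC71, a description over bins that share cells between running values and a common order. The share of CHLA9 cells with a CCNE2 UMI went from 5.32% at its lowest to 61.8% at its highest, and that of CCNE1 from 1.477% to 16.5%.

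CCNF and CCNA2 followed. CCNF peaked at 67.5% in CHLA9 with 102 CPM (98.4 to 105) over a trough of 6.67 CPM (5.60 to 7.88), 15.3-fold lower, and at 72.5% in TC71 with 60.2 CPM (55.5 to 65.3) over 6.88 CPM (5.22 to 8.89), 8.76-fold lower. CCNA2 peaked at 72.5% in CHLA9 with 224 CPM (219 to 230) over 15.02 CPM (13.4 to 16.7), a 14.9-fold range. In TC71 it peaked at 62.5% with 192 CPM (183 to 201), but its trough stood at 69.3 CPM (63.6 to 75.5), a range of 2.77-fold. CCNA2 climbed early in CHLA9, where it stood at 86.4 CPM at 32.5%, the position of the CCNE2 peak. The CCNF and CCNA2 profiles correlated at r = 0.95 in both lines.

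The mitotic cyclins were last. CCNB1 peaked at 77.5% in CHLA9 with 665 CPM (656 to 675) over a trough of 54.5 CPM (51.7 to 57.4) at 32.5%, where the E cyclins were near their highest, a 12.2-fold range. In TC71 it peaked at 72.5% with 415 CPM (403 to 428) over 85.5 CPM (79.4 to 91.9), 4.86-fold. CCNB2 peaked at 77.5% in CHLA9 with 225 CPM (219 to 230.1) over 31.1 CPM (29.0 to 33.3), a 7.23-fold range, and at 72.5% in TC71 with 133 CPM (126 to 140.2) over 63.1 CPM (58.0 to 68.6), a 2.10-fold range. In CHLA9 the bins not told from the peak ran from 60% to 75% for CCNF, from 65% to 80% for CCNA2, from 70% to 80% for CCNB1 and from 75% to 85% for CCNB2. CCNF thus peaked before CCNB2 beyond counting error in CHLA9, the other neighbours overlapped, and CCNB2 peaked at 72.5% under 4 of 13 alternatives. In TC71 all 4 ranges overlapped between 65% and 80%.

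**Figure D4:**
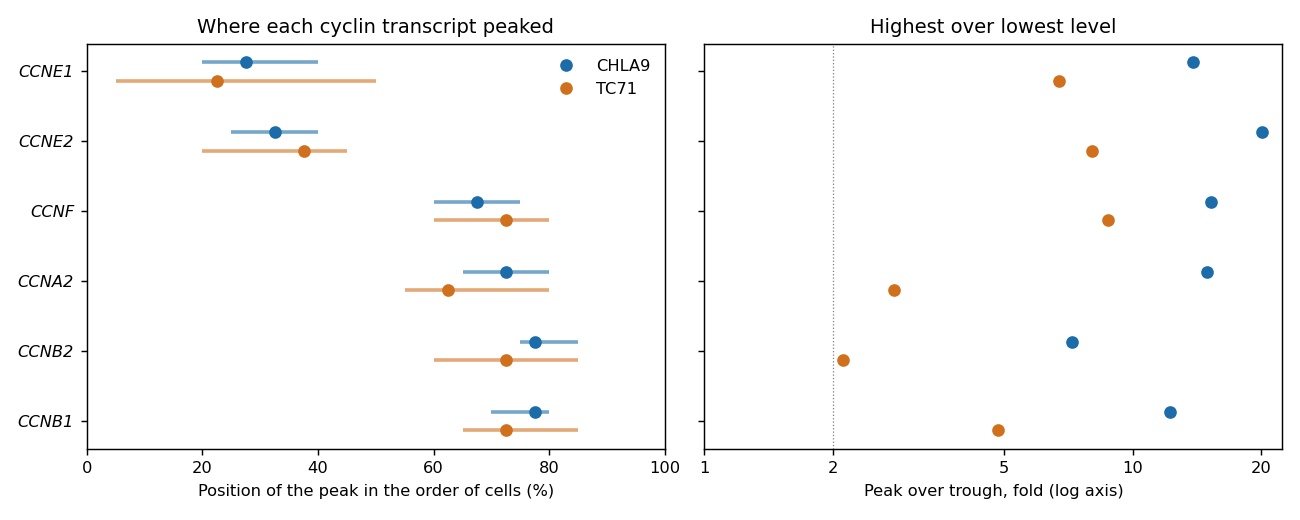
Left, position of the highest level of 6 cyclins in the order of cells (points), with the bins not told from the peak by 95% Poisson intervals (bars). Right, highest over lowest level on a log axis, with a dotted line at 2-fold. E cyclins peak between 22.5% and 37.5% and the other 4 between 62.5% and 77.5% in both lines, and all 6 folds are larger in CHLA9.

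The range of each of these 6 cyclins was narrower in TC71 than in CHLA9, and for CCNE2, CCNA2 and CCNB2 the troughs differed by a larger factor than the peaks. The troughs of CCNA2, CCNB1 and CCNB2 in TC71 were 69.3, 85.5 and 63.1 CPM against 15.02, 54.5 and 31.1 CPM in CHLA9. In the 5869 TC71 barcodes under 5000 UMIs, which were left out, the 3 genes stood at 103, 234 and 96.1 CPM. In the 3 neighbouring bins where each gene was found least, 48.2% of TC71 cells had a CCNA2 UMI, 52.4% a CCNB1 UMI and 47.8% a CCNB2 UMI after thinning, against 11.4%, 32.8% and 23.0% in CHLA9. These libraries hold 1 line each, so no cell type without the genes gives a background share, and the part of free RNA in the troughs was not tested. Other cycle genes had a narrower range in TC71 too, as HIST1H4C varied 17.0-fold in CHLA9 and 2.08-fold in TC71, and BUB1B 13.3-fold and 3.43-fold. The S score had an SD of 0.205 in CHLA9 and 0.130 in TC71, and the G2/M score an SD of 0.335 and 0.239.

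CCND1, CCND3 and CCNG1 stayed under 2-fold in both lines, and CCND2 in CHLA9. CCND1 had a peak of 2594 CPM at 22.5% and a trough of 2288 CPM at 97.5% in CHLA9, a 1.13-fold range, and 1551 CPM at 42.5% against 1323 CPM at 2.5% in TC71, a 1.17-fold range. Counted as UMIs per cell, its range was 1.74-fold in CHLA9 and 1.44-fold in TC71, with the peak at 62.5% and 67.5%, where cells held the most UMIs of all genes. CCND2 ranged 1.47-fold in CHLA9, from 61.9 CPM at 27.5% to 42.2 CPM at 77.5%. CCND3 ranged 1.82-fold in CHLA9, from 28.7 CPM at 37.5% (26.6 to 30.8) to 15.7 CPM at 72.5% (14.4 to 17.2). Its profile correlated with that of CCNE2 at r = 0.94 in CHLA9 but only 0.39 in TC71. Counted as UMIs per cell, CCND3 reached 2.06-fold in CHLA9 and passed the limit. CCND2 in TC71, with 97 UMIs in all, ran from 0.763 to 2.74 CPM, 3.60-fold, and 19 of the 20 bins could not be told from the highest. In TC71, CCND3 lay between 13.1 and 16.5 CPM, and none of the 20 bins could be told from the highest. As a share of all UMIs, CCNG1 peaked late in CHLA9, with 98.3 CPM at 92.5% (94.1 to 103) over 65.8 CPM at 42.5% (62.8 to 68.9). The bins not told from its peak ran from 70% to 100%. Counted as UMIs per cell it was not late, at 4.15 in the bin from 65% to 70% and 2.95 in the bin from 90% to 95%. In TC71, CCNG1 ranged from 48.8 to 59.5 CPM, with 18 bins not told from the highest.

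Cells were also split by 1 score at a time, without the angular order. The 25% of CHLA9 cells highest in S held 91.6 CPM of CCNE2, against 4.62 CPM in the lowest 25%, a log2 ratio of 4.31 (4.10 to 4.53), and CCND3 had a log2 ratio of 0.74 (0.60 to 0.88). Across all 8621 genes, 1.73% were 2-fold or more higher and 1.03% lower in the cells highest in S. For G2/M, CCNB1 stood at 626 CPM in the highest and 38.5 CPM in the lowest 25% of CHLA9 cells, a log2 ratio of 4.02 (3.95 to 4.10), with 2.55% of genes 2-fold or more higher and 0.464% lower. In TC71 the same ratios were 2.83 for CCNE2 by S (2.60 to 3.07) and 2.15 for CCNB1 by G2/M (2.06 to 2.23), with 0.589% and 2.02% of 8153 genes 2-fold or more higher and 0.871% and 0.196% lower. CCNB2 in TC71 was under 2-fold by either score, with log2 ratios of 0.90 by G2/M (0.79 to 1.01) and -0.91 by S (-1.03 to -0.80). CCND1 had log2 ratios from 0.03 to 0.14 over both scores and lines.

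For each cyclin with 10 CPM in both lines, the genes of most like profile were sought among 5287 genes by the lower r of the lines over the 20 bins. The cyclins described here and the genes of the S and G2/M scores were left out of this search. CCNB1 and CCNB2 correlated with each other at r = 0.98 in CHLA9 and 0.93 in TC71, so closest below means closest among the genes searched. CCNE2 was closest to E2F1 (r = 0.98 in CHLA9 and 0.97 in TC71), FAM111B and CHAF1A. CCNA2 was closest to BUB1B (0.99 and 0.98), KNL1 and CEP55, and CCNF to KIF14 (0.98 and 0.98), DEPDC1 and BUB3. CCNB1 was closest to ARL6IP1 (0.99 and 0.97), KIF20A and PRR11, and CCNB2 to AC084033.3 (0.94 and 0.91), CDKN3 and KIF20A. For CCND1, CCND3 and CCNG1, which stayed under 2-fold, the best lower r was 0.81 with CENPO, 0.64 with FANCL and 0.70 with CTNNB1.

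How often cyclins were found together in a cell was set against the product of their shares. Each interval is that of the share with both, with the product taken as fixed. In CHLA9 the interval lay above the product for 10 of 45 pairs and below it for 9, and in TC71 for 4 and 3. The same count was not taken over pairs of other genes, so whether the cyclins stand out from them is not known. At 10000 UMIs per cell, CCNB1 and CCNB2 were found together in 42.4% of CHLA9 cells, 1.28 times the product of their shares (1.24 to 1.32), and CCNA2 and CCNF in 20.8%, 1.38 times the product (1.30 to 1.46). CCNE1 and CCNE2 were found together in 3.90% of cells, 1.98 times the product (1.70 to 2.28). CCNE2 and CCNB2 were found together 0.59 times as often as the product (0.53 to 0.65), and CCNE1 and CCNB2 0.61 times (0.50 to 0.74). CCND2 with CCNE2 was at 1.02 (0.92 to 1.12) and CCNE2 with CCNA2 at 0.95 (0.89 to 1.03), both intervals that include 1. The pairs with CCND1 were at 1.00 and could hardly leave it, because nearly every cell held CCND1.

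Of the 45 pairs, 7 exceeded 1.2 times the product in CHLA9 and 2 in TC71. The medians over all pairs, those with CCND1 among them, were 1.00 and 0.999. The CHLA9 count was 1 at full depth, 4 among cyclins of 10 CPM and 5 with another random thinning. Both TC71 pairs, CCNE1 with CCNE2 at 1.41 (0.94 to 2.04) and CCND2 with CCNE2 at 1.25 (0.57 to 2.37), had intervals that include 1, and another random thinning gave 4 pairs in TC71. CCNE2 and CCNF were found together 0.63 times as often as the product in TC71 (0.49 to 0.80) and 0.73 times in CHLA9 (0.64 to 0.83). When the product was taken within each of the 20 bins and summed, 0 of 45 pairs exceeded 1.2 times it in either line. Within bins in CHLA9, the intervals of 2 of 45 pairs lay above 1. They were CCNE1 with CCNE2 at 1.1975 (1.03 to 1.38) and CCNB1 with CCNB2 at 1.06 (1.02 to 1.10). The 1 pair below was CCNE2 with CCNB2 at 0.88 (0.80 to 0.97). In TC71, 0 pairs lay above and 0 below. Among 45 intervals a few can miss 1 by counting error alone, so these pairs carry no finding beyond cycle position.

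**Figure D5:**
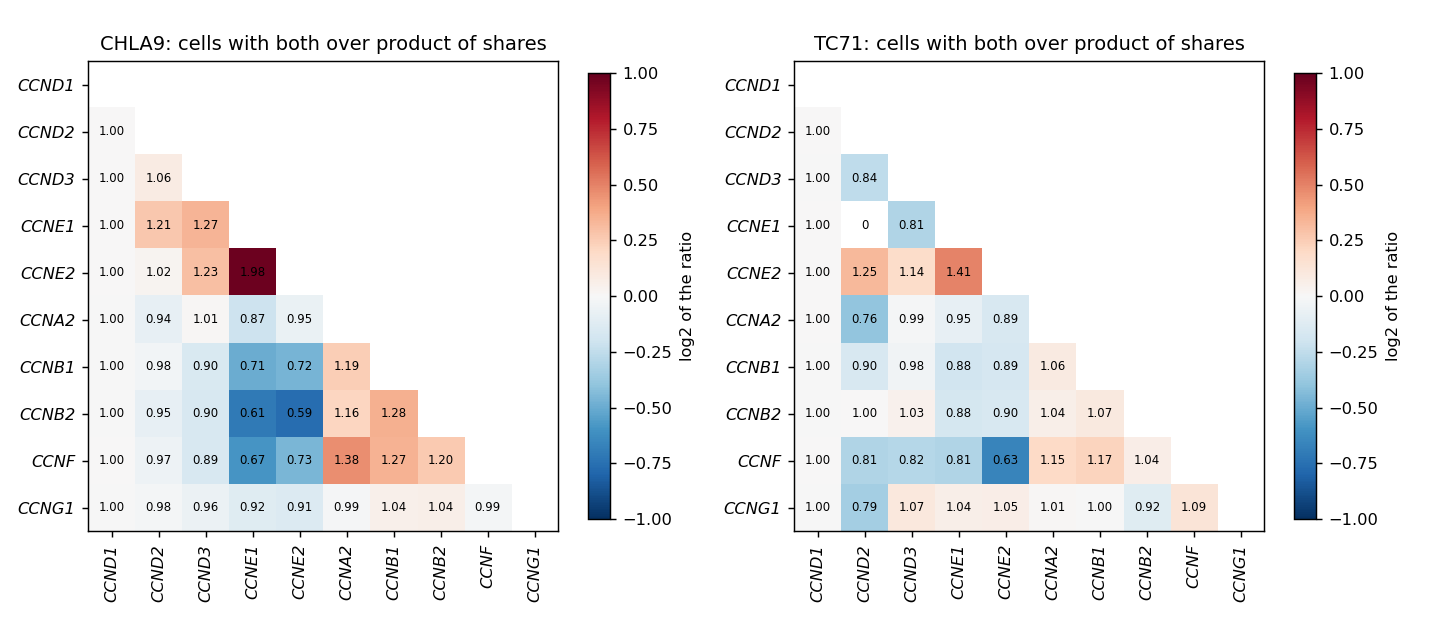
Share of thinned cells with a UMI of both cyclins, divided by the product of their shares, for the 45 pairs in CHLA9 and TC71, with the ratio printed in each square and coloured by its log2. In CHLA9 the E cyclins form a red square at 1.98 and CCNA2, CCNB1, CCNB2 and CCNF a red block, with blue between them, and in TC71 the pattern is paler.

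A thinned cell held a UMI of a mean of 4.37 of the 10 cyclins in CHLA9 and 4.11 in TC71, with a median of 4 in both. No cell lacked all 10, and no cell held all 10. The mean in CHLA9 was 2.90 at the start of the order, 5.36 in the bin around the CCNA2 peak and 3.27 in the last bin, and in TC71 it ran only from 3.61 to 4.79.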

How the data were processed

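Single-cell RNA of CHLA9 and TC71 was captured with the 10X Chromium 3′ V3.1 kit. Cell Ranger 3.1.0 and hg38 were used by the authors to make UMI counts per gene and barcode, which were deposited as raw counts. Both libraries were run on a HiSeq, and CHLA9 also on a NovaSeq. Samples other than these lines were not analysed here.

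Groups were the cell line labels. The cyclins, the gene lists and the tests were chosen with earlier results of these data known. UMIs were summed over kept cells and given as CPM with exact 95% Poisson intervals, shares have Clopper-Pearson intervals and ratios of levels exact conditional binomial intervals, all covering counting error only. For cyclins found together, the Clopper-Pearson interval of the share with both was divided by the product, and error in the product was left out. Thinning drew UMIs without replacement with seed 1. Scores were the mean over a list of ln(1 + UMIs per 10000), centred on the median and divided by the SD of the line. A difference counted from 2-fold among genes of 10 CPM. Doublets were not removed, but an alternative left out the 8% of cells with most UMIs. The rule on names took all 10 cyclins, partners with 100 CPM in a line and a 2-fold difference, and the 3 genes of most like profile among those of 20 CPM in both lines. The cyclins described here and the genes of the score lists were not searched for like profiles. Coordinates and promoters are from RefSeq on GRCh38.p14 and GENCODE 44. The peak, order and ratio steps were tested on simulated data. Python 3.11.15, numpy 2.4.6, scipy 1.17.1, pandas 2.3.3, scanpy 1.11.5 and matplotlib 3.10.9 were used. With 1 library per line there was no replicate to leave out. Alternatives to the cell filters, scaling, score lists, centre, bins, depth and thinning are given in the closing section, with leaving out shared barcodes chosen after seeing the data.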

Additional observations from a re-analysis of the deposited data

Results flagged for a closer look

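Barcodes under 5000 UMIs, which entered none of the comparisons, also held CCND1, above the level that 3 counts would give. The 277 such barcodes of CHLA9, with a median of 2530 UMIs, held 548 CCND1 UMIs, or 760.03 CPM (698 to 826), against 2510.5 CPM in the kept cells. The 5869 such barcodes of TC71, with a median of 1170.0 UMIs, held 8097, or 912 CPM (892 to 932), against 1451 CPM in the kept cells. In TC71, CCNB1 stood at 234 CPM in these barcodes against 240 CPM in kept cells, CCNB2 at 96.1 against 95.2 and CCND3 at 14.98 against 14.86 CPM. CCNA2 was lower in them, at 103 CPM (96.6 to 110.1) against 127, and so was CCNE2, at 31.7 CPM (28.1 to 35.6) against 40.9. In CHLA9, CCNB1 stood at 151 against 279 CPM and CCNB2 at 27.7 against 109 CPM. What these barcodes hold was not tested.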

How the results depend on the processing

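The count of cyclins 2-fold or more apart between the lines was 1 under 9 alternatives and 2 with no minimum CPM, where CCNE1 joined CCND2. The count varying 2-fold or more along the cycle was 5 or 6 in CHLA9 and 4 to 7 in TC71 under all 14 alternatives. CCND1's share of cyclin D UMIs left its counting interval as a mean over cells, at 97.1% in CHLA9 and 98.7% in TC71, and after thinning in TC71, at 98.8%. The count of pairs above 1.2 was the least stable. In CHLA9 it was 1 at full depth and 4 with cyclins of 10 CPM only, against 7. In TC71 it was 4 at 5000 UMIs, 4 with another seed and 0 with cyclins of 10 CPM only, against 2. The setting of 10 CPM leaves out CCNE1 in both lines and CCND2 in TC71, and each TC71 pair above 1.2 held 1 of these. A ratio also cannot exceed 1 over the larger of the 2 shares. At full depth CCNB1 was found in 85.4% of CHLA9 cells, against 64.2% after thinning, which leaves its pairs little room. The part of this limit in the other counts was not tested. No called log2 difference changed sign. Of 260 peak positions under alternatives, 252 stayed in the range given by counting error, but some could hardly leave it. The higher minimum of UMIs per cell kept the same cells, because the order already held only thinned cells. It could therefore change no position and no count along the cycle. In TC71 the range took in 20 of 20 bins for CCND3, 19 for CCND2 and 18 for CCNG1. CCNB2 in TC71 stood nearest to the 2-fold limit, with ranges from 1.91 to 2.35.

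No paired analysis was possible because neither line has a replicate library and no replicate number is given. Depth limits CCNE1 in both lines and CCND2 in TC71 the most, with 1447, 232 and 97 UMIs, and no spread between cultures is known for any value.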

Other observations

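CCND2 was uneven among CHLA9 cells, and nearly as uneven within bins of the cycle order, so cells were set side by side by their CCND2 UMIs after thinning, a comparison chosen after its values were seen. The classes had like depth, with medians of 34565 UMIs in the 3107 cells with 0 CCND2 UMIs and 32540 in the 235 cells with 3 or more. Of 6750 genes with 20 CPM in either class, TP73, a p53 family transcription factor, was the 1 gene 2-fold or more apart, and the median gene was 0.07 apart on the log2 scale. TP73 stood at 26.9 CPM in cells with 0 CCND2 UMIs, 20.9 with 1, 14.998 with 2 and 9.49 with 3 or more, from 3214 UMIs at 0 and 81 at 3 or more. The log2 ratio of the outer classes was -1.50 (-1.84 to -1.18), an interval for counting error that does not allow for TP73 having been picked from so many genes. The next lower genes were ANXA1, at 20.1 and 11.8 CPM, and TAGAP, at 34.9 and 21.1 CPM.

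In the other direction IGF1, a growth factor gene, stood at 11.98 CPM in cells with 0 CCND2 UMIs and 21.0 CPM in cells with 3 or more, and OLFML3 at 62.6 and 90.8 CPM. Like TP73, ANXA1 and TAGAP, these were picked as the extremes of 6750 genes, so their differences carry no finding. IGF1, ANXA1 and TP73 also reached the minimum of 20 CPM only in the class where they were higher. Among the other cyclins, CCND1 stood at 2517 and 2471 CPM, CCND3 at 20.2 and 21.2 CPM and CCNB1 at 288 and 285 CPM in cells with 0 and with 3 or more CCND2 UMIs. CCNE2 was higher in cells with 3 or more, at 47.5 against 37.4 CPM (log2 ratio 0.34, 0.19 to 0.49). CCNF was lower there, at 41.2 against 49.0 CPM (-0.25, -0.41 to -0.09), as were CCNA2 (-0.14, -0.24 to -0.05) and CCNB2 (-0.14, -0.24 to -0.05). CCND2 itself stood at 58.9 CPM in the 25% of CHLA9 cells highest in S and at 43.6 CPM in the 25% highest in G2/M, and the part of cycle position in these differences was not tested.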
